A study of Mus musculus with 8 samples.

Results

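The 48 genes described here encode the machinery that copies chromosomal DNA, and their H3K36me3 was measured along the gene body in 4 chromatin immunoprecipitation (ChIP–seq) libraries. They were listed by function, as origin licensing, helicase, polymerase and clamp genes, from the 21853 protein-coding genes of GENCODE release M21 on the mouse build mm10. The list was drawn up because Cdc45 had a low H3K36me3 level in OSKM and a higher one in OSKM B12, so the members were chosen on the values of Cdc45 in these libraries, and the contrasts OSKM against MEF and OSKM B12 against OSKM are given as a description. The cells were i4F MEFs, mouse embryonic fibroblasts from embryonic day 13.5 in which doxycycline switches on a transgene for OCT4, SOX2, KLF4 and MYC, the reprogramming factors abbreviated OSKM. All cells came from 1 embryo, labelled Clone 1, and were collected 72 h after the change to iPSC medium.

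The 4 conditions were MEF (no doxycycline, no added vitamin B12), MEF B12 (no doxycycline, 2 µM vitamin B12), OSKM (doxycycline, no added vitamin B12) and OSKM B12 (doxycycline and 2 µM vitamin B12). The labels give doxycycline as 1 µg/ml, and the paper's methods print another unit. The transgene was carried by the MEF and MEF B12 cells too, where it was not induced. There was 1 H3K36me3 library with its 1 input library per condition, so differences between conditions have no replicates behind them and no p-value was computed. The H3K36me3 libraries held between 29046913 and 33399267 tags after removal of duplicates. The name of the antibody target is printed as H3K3me3 in the labels and the methods. The peaks lay over the 8 fibroblast markers listed for the check of the cell type, with a median of 85.0% of the gene body in MEF, and no peak lay over the early epithelial markers Cdh1, Epcam, Krt8 and Krt18, the blood marker Ptprc or the endothelial markers Pecam1 and Cdh5. Of the 5 pluripotency genes, Nanog, Pou5f1 and Sox2 had no peak in any library, while Klf4 and Myc, which are also factors of the transgene, had peaks in all 4. Of the 2 neural markers, Sox10 had no peak. Tubb3, which lies wholly inside another annotated gene, had 25.1%, 31.7%, 0% and 25.6% of its body covered in MEF, MEF B12, OSKM and OSKM B12, respectively.

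Replication starts when the origin recognition complex, with CDC6 and CDT1, loads the MCM helicase onto origins. The kinase CDC7 with DBF4, together with CDC45, the GINS complex and MCM10, then turns the loaded helicase into a moving fork, where primase and DNA polymerases α, δ and ε copy the strands, the clamp PCNA holds polymerases on DNA, RPA coats single strands, and FEN1 and LIG1 join Okazaki fragments. Many of these genes are transcribed as cells enter S phase. H3K36me3 is laid down by SETD2, which travels with elongating RNA polymerase II, so the mark lies over the bodies of transcribed genes and grows towards their ends.

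To show where the mark was measured, 4 coding stretches of 150 bases are printed as the reference genome gives them, on the coding strand, with coding bases in capitals and intron bases in lower case. The first 3 were chosen to lie in a peak in MEF, MEF B12 and OSKM B12 but not in OSKM. The stretch of Mcm3 was chosen to lie in a peak in all 4 libraries. All 4 genes are on the minus strand of mm10. They lie at chr16:18807274-18807423 in exon 6 of Cdc45, chr2:5008480-5008629 in exon 3 of Mcm10, chr5:8408234-8408383 in exon 6 of Dbf4 and chr1:20803505-20803654 in exon 17 of Mcm3.
Cdc45: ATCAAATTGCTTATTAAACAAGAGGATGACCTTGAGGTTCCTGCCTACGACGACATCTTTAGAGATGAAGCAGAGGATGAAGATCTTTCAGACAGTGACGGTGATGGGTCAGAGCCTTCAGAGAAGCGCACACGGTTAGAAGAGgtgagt
Mcm10: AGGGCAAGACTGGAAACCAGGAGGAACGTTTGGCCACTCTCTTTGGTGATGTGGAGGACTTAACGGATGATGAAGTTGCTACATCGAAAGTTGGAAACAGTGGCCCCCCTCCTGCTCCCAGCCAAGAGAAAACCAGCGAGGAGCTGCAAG
Dbf4: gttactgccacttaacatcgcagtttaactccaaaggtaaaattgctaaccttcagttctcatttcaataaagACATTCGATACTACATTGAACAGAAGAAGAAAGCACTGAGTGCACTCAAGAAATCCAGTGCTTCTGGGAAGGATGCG
Mcm3: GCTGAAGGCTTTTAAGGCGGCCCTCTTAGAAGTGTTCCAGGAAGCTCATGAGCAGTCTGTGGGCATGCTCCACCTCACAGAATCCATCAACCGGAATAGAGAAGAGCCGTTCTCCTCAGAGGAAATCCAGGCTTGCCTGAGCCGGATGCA

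H3K36me3 over the replication genes was lower in OSKM than in the other 3 conditions at nearly every gene, and in OSKM B12 it was above the MEF level at most of them. Both also held for most protein-coding genes that carried the mark. The mean share of the gene body inside peaks (covered share) was 59.7%, 64.2%, 34.8% and 63.5% in MEF, MEF B12, OSKM and OSKM B12. These means cover the 44 members whose covered share averaged at least 10% over the 4 libraries, and 9199 protein-coding genes met the same condition. The 48 members lie on 15 chromosomes, and 46 of them had a peak in every library. Over those 9199 genes the mean covered share was 50.3%, 53.2%, 34.3% and 53.6% in the same order. With all peaks kept, the replication genes were thus more covered than the average gene in MEF, MEF B12 and OSKM B12. In OSKM they were close to it. With only peaks at a −log10 q of 5 or more, they were less covered than the average gene in all 4 libraries. The mean covered share of the members was then 28.0%, 34.7%, 1.03% and 37.7% in the same order. That of all genes was 31.5%, 36.8%, 6.73% and 38.2%. In bulk chromatin, fewer cells that carry the mark on a gene and less of the mark per cell cannot be told apart, and with no added reference chromatin each level is relative to its own library.

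The second measure was the density, the pileup per 1000000 tags summed over the peak bases of a gene and divided by its length. Signal below the peak limit adds nothing to the density. The mean density over the 44 members was 0.340, 0.410, 0.166 and 0.429 in MEF, MEF B12, OSKM and OSKM B12, against 0.319, 0.379, 0.175 and 0.400 over all genes. OSKM had the lowest of the 4 densities for 43 of the 44 members, or 97.7%, and for 97.9% of all genes, so the order itself is one that nearly all genes share. Changes are log2 ratios of densities with a pseudocount of 0.05, which makes the changes of weakly marked genes smaller, and a gene was called when its change was at least 2-fold.

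**Figure D1:**
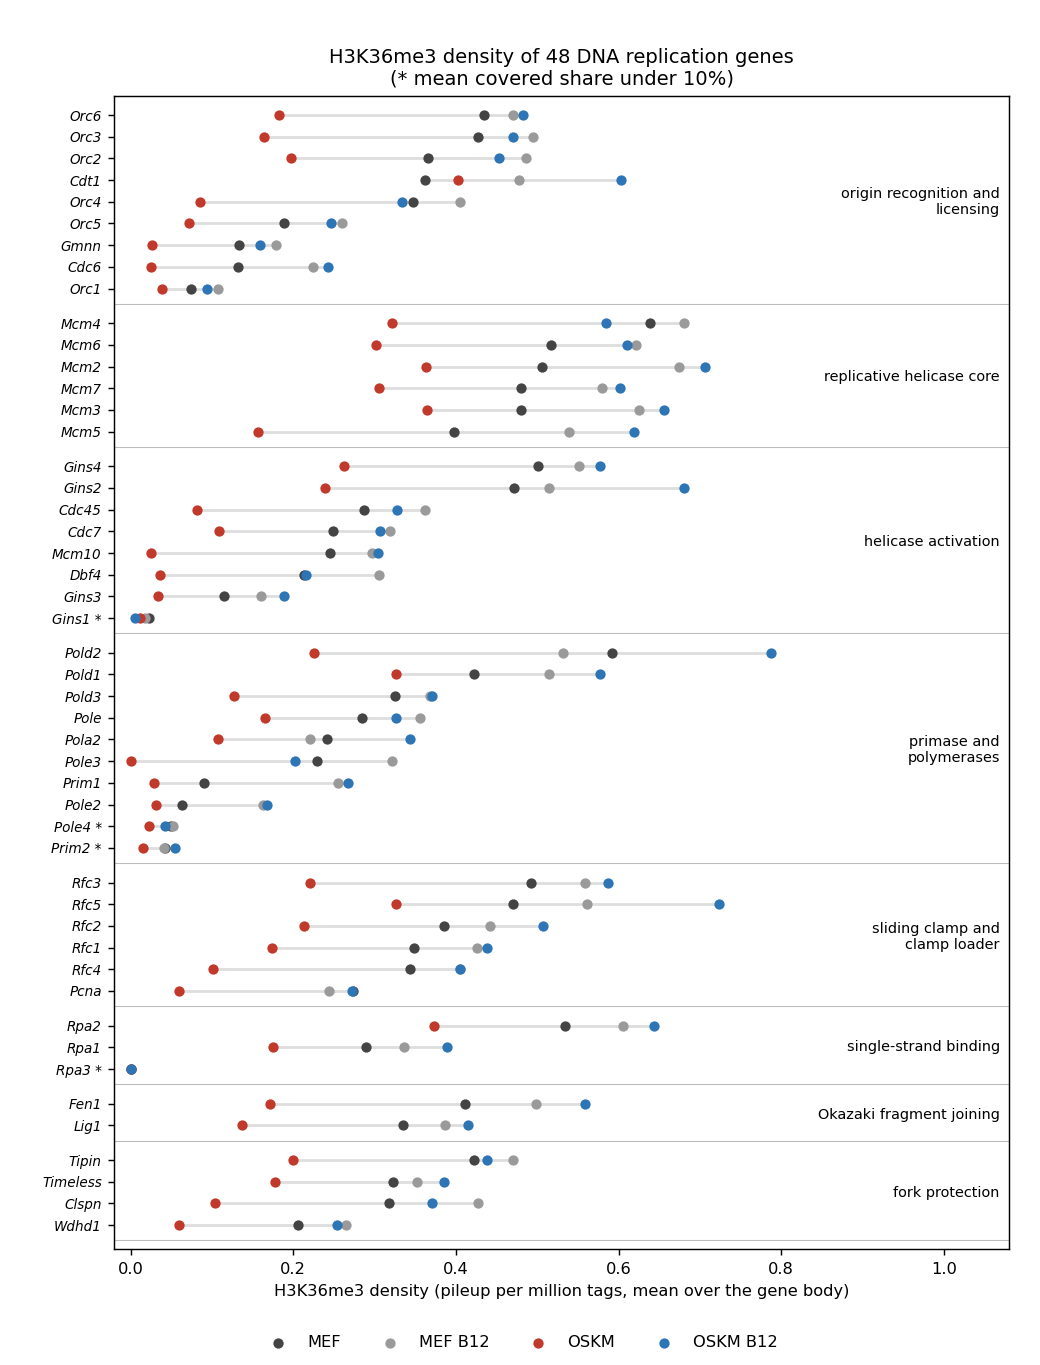
H3K36me3 density (pileup per 1000000 tags, mean over the gene body) of each of the 48 genes in MEF, MEF B12, OSKM and OSKM B12, 1 point per library, ordered by role and by density in MEF; an asterisk marks the 4 genes with a mean covered share under 10%. OSKM was the lowest point for 43 of the 44 other genes, with Cdt1 as the exception.

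From MEF to OSKM, the density was lower for 43 of the 44 members, beside 9053 of all 9199 genes, and higher for Cdt1. The median log2 change was −0.92, with quartiles of −1.22 and −0.67, against a median of −0.72 over all genes. Called lower were 19 members, or 43.2%, beside 20.3% of all genes, and without Cdc45 18 of 43. No member was called higher. The covered share fell to at most 0.5 of its MEF value for 17 members, or 38.6%, beside 29.7% of all genes. Where peaks were kept only at a −log10 q of 5 or more, the members no longer stood above the background in the count of genes called lower. There 22 of 44 were called lower beside 52.8% of all genes. With a pseudocount of 0.2 the count was 1, beside 0.924% of all genes. Peaks that met the limit on q lay over 24 of the 44 members in MEF (54.5%) and 4 in OSKM (9.09%), beside 71.3% and 21.6% of all genes.

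From OSKM to OSKM B12, all 44 members had a higher density, as had 9170 of all 9199 genes. The median log2 change was 1.26, against 0.99 over all genes. Called higher were 31 members, or 70.5%, beside 49.0% of all genes, and without Cdc45 30 of 43. The covered share rose to at least 2 times its OSKM value for 20 members, or 45.5%, beside 36.1% of all genes. The 19 members called lower from MEF to OSKM were all among the 31 called higher here. Both contrasts use the same OSKM library, so a low value in that library gives a fall in the first and a rise in the second. At the same limit on q, 29 of 44 members were called higher beside 68.9% of all genes. With a pseudocount of 0.2 the count was 8, beside 2.98% of all genes.

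Without doxycycline the difference with vitamin B12 was small. The density was higher in MEF B12 than in MEF for 41 of the 44 members, beside 8443 of all 9199 genes. It was lower for Pola2, Pold2 and Pcna. The median log2 change was 0.25, against 0.21 over all genes. Without division by tags this median was 0.099, against 0.069 over all genes. Only Prim1 was called (log2 change 1.12), 1 of 44 or 2.27%, beside 1.10% of all genes. Between OSKM B12 and MEF the density was higher in OSKM B12 for 40 members, beside 8445 of all 9199 genes. It was lower for Orc4, Mcm4, Pole3 and Pcna. By covered share 31 members were higher, beside 6508 of all genes. The median log2 change was 0.26, the same as over all genes, and again only Prim1 was called (1.18), beside 1.61% of all genes. Without division by tags this median was 0.14, against 0.15 over all genes.

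**Figure D2:**
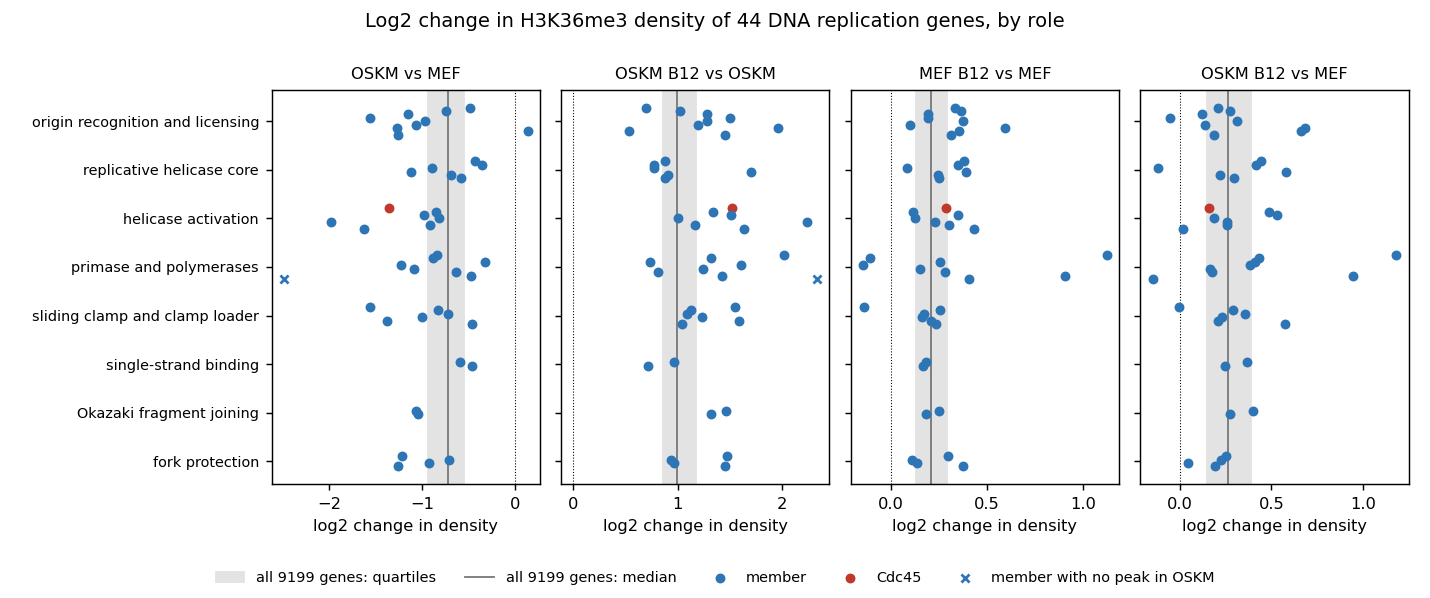
Log2 change in H3K36me3 density of the 44 replication genes by role in 4 comparisons (x axes, log2 units with pseudocount 0.05), with the median (line) and quartiles (grey band) of all 9199 genes and Cdc45 in red; crosses mark Pole3, which had no peak in OSKM. From MEF to OSKM the median of the members was −0.92 and that of all genes −0.72, and between OSKM B12 and MEF both medians were 0.26.

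The licensing genes, which mark origins and load the helicase, included some of the largest differences. Their median log2 change from MEF to OSKM was −1.06 over 9 genes. Called lower were 5 (Orc3, Orc4, Orc6, Cdc6 and Gmnn), beside 20.3% of all genes. The groups by role are small, and their counts are a description. Orc4, a subunit of the origin recognition complex, was covered over 68.1% of its body in MEF, 67.8% in MEF B12, 20.9% in OSKM but 59.8% in OSKM B12. Its densities were 0.348, 0.405, 0.0852 and 0.333, with OSKM far below the other 3, and the log2 change from MEF to OSKM was −1.56. Orc1, the largest subunit, had little of the mark anywhere, with 15.4%, 21.6%, 8.65% and 15.9% of the body covered and densities of 0.0745, 0.107, 0.0388 and 0.0939. Its log2 change from MEF to OSKM was −0.49, the smallest among the licensing genes with a lower density in OSKM. The pseudocount is large beside densities this low. Without it the ratio of OSKM to MEF was 0.521 for Orc1, below the 0.540 of Orc2. The other subunits Orc2 and Orc5 had log2 changes of −0.75 and −0.97.

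Cdc6, which works with ORC to load the helicase, had covered shares of 36% in MEF, 54.6% in MEF B12, 5.48% in OSKM but 58.0% in OSKM B12. Its densities were 0.132, 0.224, 0.0252 and 0.242. The OSKM density was 0.191 of that in MEF (95% interval 0.140 to 0.261) and the OSKM B12 density was 9.60 times that in OSKM (7.10 to 13.0). These intervals, and those that follow, come from the estimated number of fragments behind each density and cover counting error only. Gmnn encodes geminin, the inhibitor of CDT1, and its densities were 0.134, 0.178, 0.0266 and 0.160 in MEF, MEF B12, OSKM and OSKM B12.

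Cdt1, the partner of CDC6 and the target of geminin, went against the others. Its covered share was 63.3%, 70.6%, 75.3% and 69.0% in MEF, MEF B12, OSKM and OSKM B12, and its densities were 0.362, 0.478, 0.402 and 0.603. The log2 change from MEF to OSKM was 0.13, and the ratio of 1.11 had an interval of 0.921 to 1.34. The whole body of Cdt1, like that of Gins2, lies inside the annotated gene Gm20388, so peaks there cannot be assigned to 1 gene. Orc2 also shares a large part of its body with another gene, Nif3l1, and 55.0% of it is in no other gene. Over the 41 members with at least 90% of the body in no other gene, 19 were called lower from MEF to OSKM, beside 20.3% of all genes. From OSKM to OSKM B12, 29 of these members were called higher, beside 49.0% of all genes.

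The 6 MCM genes, which encode the ring of the replicative helicase, had the highest levels and among the smallest differences. Their mean covered share was 79.7%, 83.0%, 61.2% and 82.4% in MEF, MEF B12, OSKM and OSKM B12, respectively. The median log2 change from MEF to OSKM was −0.63, and only Mcm5 of the 6 was called lower, beside 20.3% of all genes. Mcm4 had the highest density of all members in MEF, with 0.639, 0.680, 0.321 and 0.585 in MEF, MEF B12, OSKM and OSKM B12. It was also 1 of the 4 members with a lower density in OSKM B12 than in MEF, by a ratio of 0.916 whose interval of 0.834 to 1.01 includes 1. Mcm3 was covered over 83.5%, 85.0%, 76.5% and 85.8% of its body, with densities of 0.480, 0.626, 0.365 and 0.656. The log2 change of Mcm3 from MEF to OSKM was −0.35, the smallest of the ring.

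Mcm5 had a larger difference than its partners, although all 6 encode subunits of the same ring. It was covered over 76.0% of its body in MEF, 85.1% in MEF B12, 33.8% in OSKM but 91.9% in OSKM B12, with densities of 0.398, 0.539, 0.156 and 0.620. The OSKM library had 10 peaks over Mcm5, where OSKM B12 had 1 long peak. The log2 change was −1.12 from MEF to OSKM and 1.70 from OSKM to OSKM B12. For Mcm2, Mcm4, Mcm6 and Mcm7, the log2 change from MEF to OSKM lay between −0.89 and −0.43.

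The genes that activate the helicase included the gene the list started from and the deepest falls among genes with a peak in every library. Over 7 members the median log2 change from MEF to OSKM was −0.98, with Cdc45, Mcm10 and Dbf4 called lower, beside 20.3% of all genes. All 7 were called higher from OSKM to OSKM B12, beside 49.0% of all genes. Cdc45, whose protein joins MCM and GINS in the active helicase, was covered over 60.1% of its body in MEF, 74.9% in MEF B12, 20.4% in OSKM but 60.2% in OSKM B12. Its densities were 0.287, 0.362, 0.0819 and 0.328. The ratio of OSKM to MEF was 0.285 (0.251 to 0.324) and that of OSKM B12 to OSKM was 4.00 (3.52 to 4.55). Of all 9199 genes, 5.66% had a lower log2 change than Cdc45 from MEF to OSKM. In MEF, 11 peaks ran from intron 4 to beyond the end of Cdc45, while the 8 peaks in OSKM began in intron 9, 14.5 kb from the start. The stretch of exon 6 printed above was chosen from the part without a peak in OSKM.

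Mcm10, which helps the activated helicase to open DNA, was covered over 55.5% of its body in MEF, 62.8% in MEF B12, 5.79% in OSKM but 63.0% in OSKM B12. Its densities were 0.246, 0.297, 0.0248 and 0.304, so the other 3 libraries were close to each other and OSKM was far below. In OSKM 3 short peaks of 291, 469 and 551 bases remained, where MEF had 8 peaks. The ratio of OSKM to MEF was 0.101 (0.0783 to 0.130), and 0.913% of all genes had a lower log2 change. Dbf4, the regulatory subunit of the CDC7 kinase, had densities of 0.213, 0.305, 0.0356 and 0.216, and its log2 change was −1.62 from MEF to OSKM and 1.64 from OSKM to OSKM B12. Its partner Cdc7 had densities of 0.249, 0.319, 0.109 and 0.306, with log2 changes of −0.91 and 1.17.

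The GINS genes differed in level. Gins4 had densities of 0.501 in MEF, 0.551 in MEF B12, 0.262 in OSKM but 0.577 in OSKM B12, and its log2 change from MEF to OSKM of −0.82 was the smallest of the activation genes. Gins3 was lower, with 0.115, 0.161, 0.0335 and 0.188. Gins1 was below the limit on covered share, with 5.54%, 4.30%, 3.20% and 1.35% of its body in peaks, and it was the only member with a peak in every library and its lowest density in OSKM B12.

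**Figure D3:**
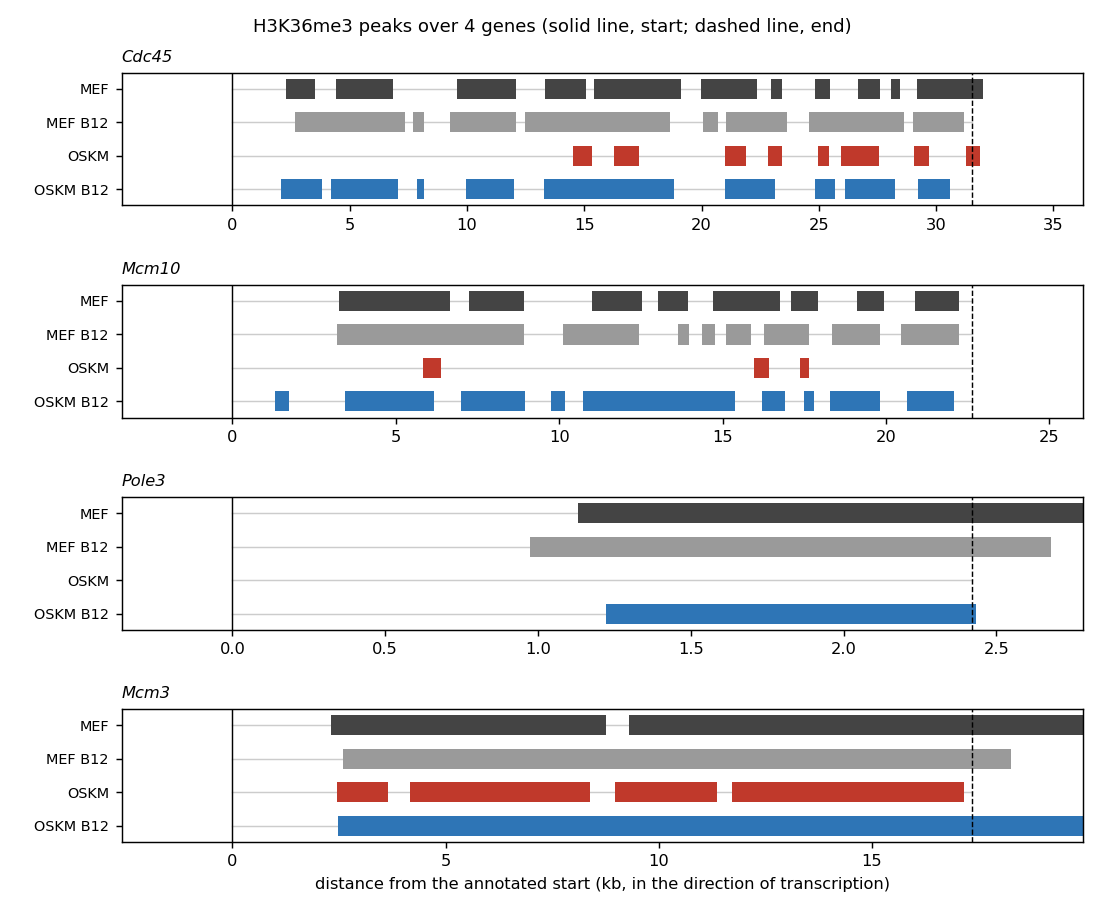
Peaks of H3K36me3 (bars) over Cdc45, Mcm10, Pole3 and Mcm3 in the 4 libraries, by distance in kb from the annotated start in the direction of transcription; the solid line is the start, the dashed line the end, and bars that run on past the window are cut off at its edge. Mcm10 kept 3 short peaks and Pole3 no peak in OSKM, while Mcm3 was covered over 76.5% of its body there.

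Among primase and polymerase genes the median log2 change from MEF to OSKM was −0.86 over 8 members. Called lower were 3, all subunits of polymerases δ and ε (Pold2, Pold3 and Pole3), beside 20.3% of all genes. Pole3, a small histone-fold subunit of polymerase ε, was covered over 53.2% of its body of 2420 bases in MEF, 59.8% in MEF B12 and 49.5% in OSKM B12, and it had no peak in OSKM. A gene with no peak is one with no enrichment that could be called at this depth, so no fold is given. Its peak in MEF was estimated to rest on 62 fragments, the fewest of the 44 members. Pold1, the catalytic subunit of polymerase δ, hardly differed in covered share, with 64.3%, 68.3%, 65.1% and 65.7%, while its densities were 0.422, 0.515, 0.326 and 0.577. Its log2 change of −0.33 from MEF to OSKM was the smallest of the polymerases. For Pole, the catalytic subunit of polymerase ε, it was −0.64.

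Pold2, the accessory subunit of polymerase δ, had the second highest density in MEF. Its covered share was 71.3%, 57.7%, 42.5% and 80.2% in MEF, MEF B12, OSKM and OSKM B12, and its densities were 0.592, 0.532, 0.225 and 0.788. Pola2, the accessory subunit of polymerase α, had densities of 0.242, 0.221, 0.108 and 0.344. Both genes were a little lower in MEF B12 than in MEF, with ratios of 0.898 (0.776 to 1.04) and 0.914 (0.815 to 1.03) whose intervals include 1.

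Prim1, the catalytic subunit of primase, was the only member called without doxycycline. It was covered over 18.5% of its body in MEF, 52.9% in MEF B12, 7.93% in OSKM but 57.3% in OSKM B12, with densities of 0.0901, 0.255, 0.0281 and 0.267. Both libraries with vitamin B12 were high and both without were low. The ratio of MEF B12 to MEF was 2.83 (2.34 to 3.42). The ratio of OSKM to MEF was 0.312 (0.226 to 0.432), which was not called because the pseudocount is large beside densities this low. Pole2, a subunit of polymerase ε, had the same order, with covered shares of 14.5%, 34.8%, 7.53% and 37.0% and densities of 0.0633, 0.162, 0.0314 and 0.168. Its ratio of MEF B12 to MEF was 2.56 (2.16 to 3.04) and that of OSKM B12 to MEF was 2.65 (2.24 to 3.15). With the pseudocount these were log2 changes of 0.91 and 0.94, so Pole2 was not called. Prim1 and Pole2 were the 2 members whose covered share at least doubled from MEF to MEF B12. Below the limit on covered share were Prim2, the large primase subunit, with 9.69%, 8.07%, 3.75% and 10.9%, and Pole4, with 10.9%, 12.5%, 5.55% and 9.16%.

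For the clamp PCNA and its loader, replication factor C, the median log2 change from MEF to OSKM was −0.92. Called lower were 3 of 6 genes (Pcna, Rfc3 and Rfc4), beside 20.3% of all genes. All 6 were called higher from OSKM to OSKM B12, beside 49.0% of all genes. Pcna was covered over 58.2% of its body in MEF, 40.3% in MEF B12, 12.6% in OSKM but 39.8% in OSKM B12. Its densities were 0.274, 0.244, 0.0600 and 0.273, so OSKM was the lowest and the other 3 were close. The ratio of OSKM to MEF was 0.219 (0.146 to 0.328). Rfc5, a small subunit of the loader, had the smallest difference, with densities of 0.470, 0.562, 0.326 and 0.724 and a log2 change of −0.47. For Rfc1 and Rfc2 it was −0.83 and −0.73.

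The genes for the single-strand binding protein had small differences. Rpa2 was next after Mcm4 and Pold2 in density in MEF, with 0.534, 0.605, 0.373 and 0.644 in MEF, MEF B12, OSKM and OSKM B12, and a log2 change of −0.47 from MEF to OSKM. Rpa1 had 0.290, 0.336, 0.175 and 0.389 and a log2 change of −0.60. Rpa3 had no peak in any library.

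Both genes of Okazaki fragment joining were called lower from MEF to OSKM and higher from OSKM to OSKM B12, beside 20.3% and 49.0% of all genes. Fen1, the flap nuclease, had densities of 0.412, 0.499, 0.171 and 0.558 in MEF, MEF B12, OSKM and OSKM B12. Lig1, the ligase that seals the nicks, had 0.334, 0.387, 0.137 and 0.415. Their log2 changes from MEF to OSKM were −1.06 and −1.04.

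Of the 4 genes that stabilise the fork, Clspn and Wdhd1 were called lower from MEF to OSKM, beside 20.3% of all genes. Clspn, which encodes the checkpoint adaptor claspin, was covered over 64.2% of its body in MEF, 77.7% in MEF B12, 25.8% in OSKM but 68.9% in OSKM B12, with densities of 0.318, 0.427, 0.104 and 0.371. The smallest difference was that of Timeless, a partner of Tipin in the fork protection complex, with 0.322, 0.353, 0.178 and 0.385 and a log2 change of −0.71. Tipin had 0.423, 0.470, 0.20 and 0.438.

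**Figure D4:**
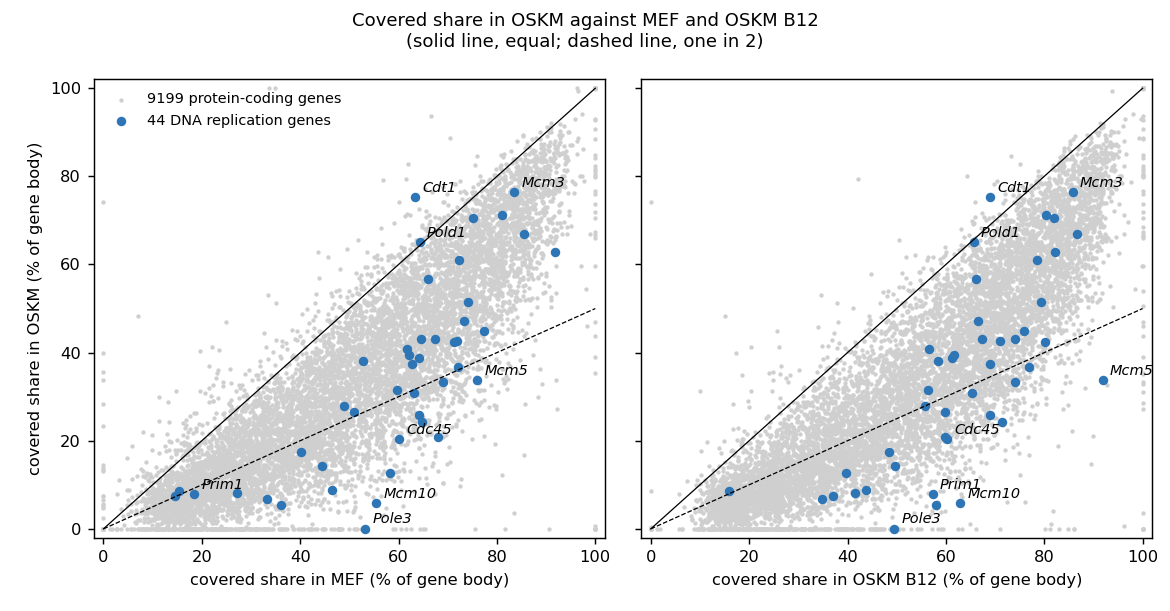
Covered share (percent of the gene body in peaks) in OSKM against MEF (left) and against OSKM B12 (right) for the 44 replication genes (blue) over all 9199 genes (grey), 1 point per gene; the solid line marks equal shares and the dashed line a share of 0.5. In the left panel 17 members lie on or below the dashed line and Cdt1 and Pold1 lie above the solid line.

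The fall in coverage was uneven along the gene. In the first 20% of the gene body the mean covered share of the members was 16.5%, 16.9%, 4.40% and 17.2% in MEF, MEF B12, OSKM and OSKM B12. In the middle 20% it was 74.4%, 79.6%, 41.1% and 81.2%, and in the last 20% it was 77.8%, 81.7%, 51.8% and 79.4%. The ratio of OSKM to MEF was 0.268 in the first 20%, 0.552 in the middle and 0.666 in the last, beside 0.555, 0.669 and 0.722 over all genes. In percentage points, the fall from MEF to OSKM was smallest in the first 20%, where coverage was low in every library. OSKM peaks over the members were more numerous and shorter, with 286 peaks of 1171 covered bases each on average, against 247 peaks of 2443 bases in MEF, 236 of 2815 in MEF B12 and 246 of 2628 in OSKM B12.

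**Figure D5:**
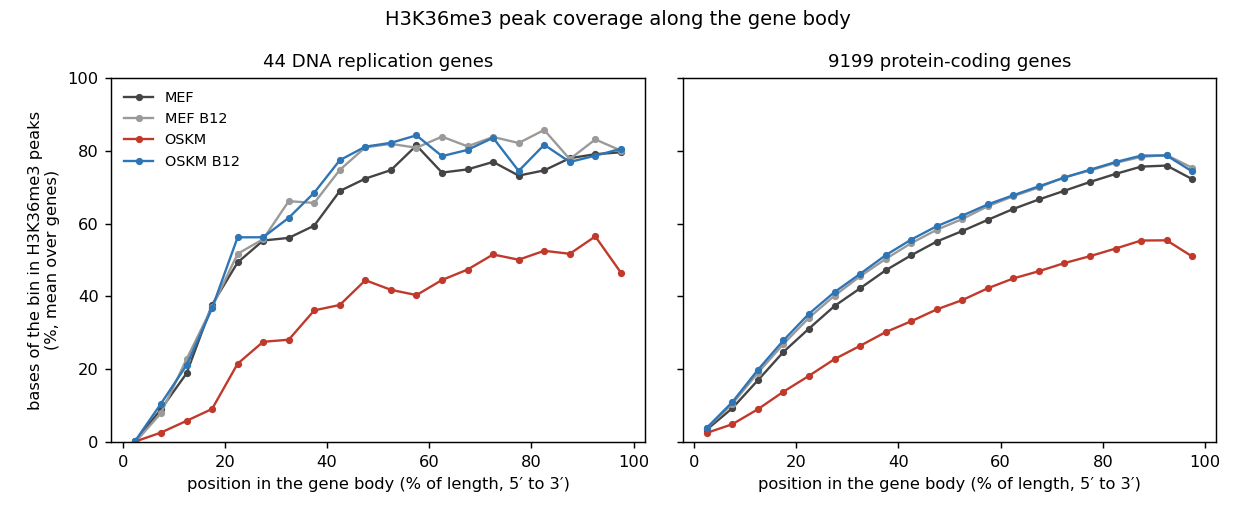
Mean share of bases in H3K36me3 peaks (y axis, percent) in 20 equal bins of the gene body from 5′ to 3′ (x axis, percent of length) for the 44 replication genes (left) and all 9199 genes (right), 1 line per library. The OSKM line is below the other 3 in both panels from the second bin on, and for the replication genes it is 4.40% in the first 20% of the body against 16.5% in MEF.

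Peak height differed less than coverage from MEF to OSKM and from OSKM to OSKM B12. Over the 0.293 Mb of the members inside peaks of every library, the pileup per 1000000 tags was 0.578, 0.662, 0.462 and 0.696 in MEF, MEF B12, OSKM and OSKM B12, respectively. The ratio of OSKM to MEF was 0.799 there, beside 0.754 over the shared bases of all genes, and that of OSKM B12 to OSKM was 1.51 beside 1.57. For MEF B12 and OSKM B12 against MEF, the ratios of the members were 1.14 and 1.20. These were above the ratios of their mean covered share, 1.07 and 1.06. The input level under the same bases of the members differed little, with a ratio of OSKM to MEF of 0.968. A base had to be called in OSKM to enter this measure, so bases whose signal dropped out of the OSKM peaks are not in it.

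The share of genes called differed by level. When all genes were divided into 3 equal groups by mean density, 3 of 8 members in the lowest group, 11 of 20 in the middle and 5 of 16 in the highest were called lower from MEF to OSKM, beside 28.3%, 27.0% and 5.51% of all genes in the same groups. In 3 equal groups by gene-body length, from the shortest, 7 of 14, 6 of 18 and 6 of 12 members were called, beside 21.3%, 17.9% and 21.6%. Across the 44 members, Spearman's rho of the mean density with the log2 change was 0.42, and it was 0.18 across all genes. These points share 4 libraries, and the mean density includes the densities compared, so rho is a description.

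Among 28 further genes of replication and nucleotide supply that were not in the list, 24 met the condition on covered share. From MEF to OSKM all 24 had a lower density, as had 9053 of all 9199 genes. The median log2 change of the 24 was −0.90, and 8 (33.3%) were called lower, beside 20.3% of all genes. From OSKM to OSKM B12, 23 were higher, beside 9170 of all 9199 genes, and 15 (62.5%) were called, beside 49.0%. The largest log2 change from MEF to OSKM was that of Dck, the deoxycytidine kinase of nucleotide salvage, at −1.43, with densities of 0.211, 0.279, 0.0468 and 0.261 in MEF, MEF B12, OSKM and OSKM B12, respectively. The smallest was that of Rrm2, a subunit of ribonucleotide reductase, with 0.257, 0.342, 0.216 and 0.406. Donson, a factor of helicase assembly, had the largest log2 change from OSKM to OSKM B12, with 0.385, 0.722, 0.144 and 0.620. Dscc1, a subunit of an alternative clamp loader, was the only one with a lower density in OSKM B12 than in OSKM, with 0.0483, 0.0517, 0.0343 and 0.0222, all low.

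Many replication genes are targets of the E2F transcription factors, and their promoters were read for the E2F letters TTTGGCGC, TTTCCCGC, TTTGCCGC and TTTCGCGC on both strands, from 250 bases before to 50 after the start in the RefSeq promoters of build GRCm38.p6, which has the coordinates of mm10. Of 39 members with a promoter in that set, 15 held a match (38.5%), beside 2.92% of 16531 promoters. The promoter whose start was nearest to the GENCODE start was taken, at any distance. For Timeless, Mcm7, Mcm10 and Cdc6 the starts lay 6001, 539, 447 and 350 bases apart. The letters TTTGAA, the core of the cell cycle homology region, were in 6 of 39 (15.4%) beside 15.6%. The 14 members with an E2F match and a measured change had a median log2 change from MEF to OSKM of −0.83, with 6 called lower. The 23 without a match had −1.04, with 12 called lower, beside −0.72 and 20.3% called lower over all genes. The promoters with the most matches are printed, 250 bases up to the start, with matches in capitals. That of Mcm5 lies at chr8:75109259-75109508 on the plus strand and holds 2 overlapping matches. That of Mcm6 lies at chr1:128359706-128359955 on the minus strand and holds 3, of which 2 overlap.
Mcm5: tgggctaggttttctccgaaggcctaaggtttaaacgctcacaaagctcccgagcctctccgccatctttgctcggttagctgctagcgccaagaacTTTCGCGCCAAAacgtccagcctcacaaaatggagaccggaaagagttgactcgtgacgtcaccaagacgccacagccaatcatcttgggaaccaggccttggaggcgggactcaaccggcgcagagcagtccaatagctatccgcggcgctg
Mcm6: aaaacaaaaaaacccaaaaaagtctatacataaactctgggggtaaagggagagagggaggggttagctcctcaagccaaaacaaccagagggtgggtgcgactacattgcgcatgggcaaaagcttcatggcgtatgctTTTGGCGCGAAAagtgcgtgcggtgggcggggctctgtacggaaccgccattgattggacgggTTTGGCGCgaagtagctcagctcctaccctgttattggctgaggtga

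The helicase partners Mcm5 and Mcm6 both carried the letters, and their H3K36me3 differed in size of change, with log2 changes from MEF to OSKM of −1.12 and −0.69. A match is a run of letters and does not show binding.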

How the data were processed

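H3K36me3 was measured by ChIP–seq in MEF, MEF B12, OSKM and OSKM B12, with 1 library and 1 input each. The authors mapped reads to mm10 (Bowtie 0.12.9), merged runs, removed duplicates and called broad peaks with MACS2 2.2.6 in each library against its own input (q cut-offs 0.05 and 0.1, genome size 3209286105). The deposited signal is the pileup, averaged over each peak from extended fragments. The authors' fold enrichment is a ratio of pileup to input with 1 added to both, and their p-values and q-values are given as −log10.

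From these lists, covered share and density of the longest protein-coding transcript of each gene (GENCODE M21) were computed with Python 3.11 and numpy 2.4.6. Peaks on unplaced scaffolds (16, 15, 1 and 14) were left out. Genes with a mean covered share under 10% were not counted. A call was a 2-fold change of density with a pseudocount of 0.05. Intervals of ratios (95%) come from estimated fragments. The arithmetic was checked on simulated data. Members, lists and tests were chosen with earlier results of these data known. All 48 genes are named by role, with full values for Cdc45, for the largest and smallest difference of each role, for the 3 highest densities and for genes against the main direction. Read coverage outside peaks and RNA were not analysed here, and 1 further gene is not reported here. Alternatives were other peak limits, scalings, pseudocounts and gene regions.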

Additional observations from a re-analysis of the deposited data

Results flagged for a closer look

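In 3 of the 44 members the difference in density with vitamin B12 had opposite signs without and with doxycycline. The log2 change was −0.11 in MEF and 1.32 in OSKM for Pola2, −0.14 and 1.61 for Pold2, and −0.14 and 1.55 for Pcna. With 1 library per condition the difference between the 2 changes was not tested, and the interval of each ratio of MEF B12 to MEF includes 1. By covered share, 10 of the 44 members were lower in MEF B12 than in MEF and higher in OSKM B12 than in OSKM. Of all 9199 genes, 752 had a lower density in MEF B12 than in MEF, and 2648 had a lower covered share. The number of all genes with opposite signs was not computed.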

How the results depend on the processing

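No paired analysis was possible because all 4 conditions have 1 library. Of 60 recomputed counts of members, 50 stayed within 1.5 times the reported count and 10 did not, and in each case the cause was not tested beyond the change made. A pseudocount of 0.2 left 1 member called lower from MEF to OSKM (0.924% of all genes) and 8 called higher from OSKM to OSKM B12 (2.98%). Against MEF it left 0 called in MEF B12 (0.174%) and 0 in OSKM B12 (0.152%). A pseudocount of 0.01 gave 2 in MEF B12 (2.22%) and 2 in OSKM B12 (3.29%) against MEF. With a −log10 q of at least 5, 33 members doubled their covered share from OSKM to OSKM B12 (71.2% of all genes), 8 were called in MEF B12 (12.6%) and 9 in OSKM B12 (14.9%) against MEF. Without division by tags, 0 were called in MEF B12 against MEF (0.946%). In the 0.5 of the body nearest the end, 15 were called lower from MEF to OSKM, beside 25%. Of 44 recomputed medians of the log2 change, 26 moved by more than the counting interval of the fragments behind them and 0 turned sign, with a range of −1.12 to −0.56 from MEF to OSKM and of 0.79 to 2.57 from OSKM to OSKM B12. Of 32 recomputed mean covered shares 16 moved by more than theirs, with a range of 28.0% to 76.6% in MEF and of 1.03% to 48.3% in OSKM. Of 1928 recomputed changes of single members 8 turned sign, none of them from MEF to OSKM or from OSKM to OSKM B12. Against MEF, these were Orc3 (−0.30) and Pold3 (−0.33) in MEF B12 and Pold3 (−0.35) and Timeless (−0.31) in OSKM B12 with a −log10 q of at least 5, Gins3 (−0.0047) in MEF B12 near the end, Tipin (−0.011) in MEF B12 and Orc3 (−0.00022) in OSKM B12 without division by tags, and Fen1 (−0.12) in OSKM B12 with fold enrichment in place of pileup. The counts without Cdc45, without overlapping genes, in groups by density or length and over strong peaks were added after seeing the data.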
